A study of Mus musculus with 6 samples.

Results

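The protein arginine methyltransferases studied here are Prmt5, the gene deleted in these animals, and 7 relatives that carry the same kind of methyltransferase fold. The members were taken by gene symbol: Prmt1, Prmt2, Prmt3, Carm1, Prmt5, Prmt6, Prmt7 and Prmt10, 8 genes of 24110 in the deposited table, and all 8 were among the 14113 genes tested. Prmt10 is an older symbol of the gene that RefSeq names Prmt9. The RNA came from hematopoietic stem cells, the marrow cells that renew the blood, sorted by the gate Lineage- Sca-1+ CD48- CD150+. The Prmt5 KO group (3 libraries, genotype Prmt5 Δ/Δ) carried the deleted gene, and the Prmt5 fl/fl group (3 libraries) carried the intact floxed gene. Both groups were on the C57BL/6 strain, were littermates matched for sex, and were sampled 7 days after induction. Each library came from the pooled marrow of 2 mice. What drove and induced the deletion, which exons it removed and how old the animals were is not stated in these sources.

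Arginine methyltransferases move methyl groups from S-adenosylmethionine to arginine side chains of proteins. Type I enzymes (PRMT1, PRMT2, PRMT3, CARM1, PRMT6) leave 2 methyl groups on 1 nitrogen, type II enzymes (PRMT5, PRMT9) leave 1 on each of 2 nitrogens, and the type III enzyme PRMT7 adds a single one. PRMT5 methylates Sm proteins of the spliceosome and histones, and PRMT1 carries out most asymmetric dimethylation in mammalian cells. Both enzymes are known to act in blood cell formation, and the series title links PRMT5 to splicing in stem cells.

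The 8 loci were spread over 6 chromosomes of GRCm38 (GENCODE M21). Prmt5 lies on chromosome 14, 54507187 to 54517525, minus strand, with 17 exons in its longest coding transcript. Prmt1 lies on chromosome 7, 44975989 to 44986568, minus strand, and Prmt3 on the same chromosome, 49778346 to 49858265, plus strand. Prmt7 (106210936 to 106252794) and Prmt10 (77549397 to 77581338) are both on chromosome 8, plus strand. Prmt2 is on chromosome 10, 76207222 to 76237865, minus strand, Carm1 on chromosome 9, 21546894 to 21592623, plus strand, and Prmt6 on chromosome 3, 110246109 to 110250998, minus strand. Prmt6 stands apart in structure, with 2 exons in its longest coding transcript against 10 to 18 for the others.

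Promoters, from 250 bases before to 50 after the annotated start, were available from RefSeq (GRCm38.p6) for 7 of the 8 members, all but Carm1. Those of the deleted gene, of the most abundant member and of the members with the lowest folds after Prmt5 are shown, 5′ to 3′ on the strand of the gene. Capitals mark matches, on either strand, to the GC box GGGCGG, the CCAAT box CCAAT, the TATA box TATAAA, the E-box CACGTG, the ETS motif CCGGAAG, the cyclic AMP response element TGACGTCA, the NRF1 core GCGCATG and the YY1 core ATGGCGG.
Prmt5, chr14:54517421-54517720, minus strand: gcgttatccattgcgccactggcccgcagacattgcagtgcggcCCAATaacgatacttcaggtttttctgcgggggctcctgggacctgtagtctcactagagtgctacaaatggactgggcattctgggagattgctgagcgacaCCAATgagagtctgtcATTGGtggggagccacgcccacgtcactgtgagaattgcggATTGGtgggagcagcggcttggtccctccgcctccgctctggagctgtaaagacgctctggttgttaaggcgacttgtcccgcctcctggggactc
Prmt1, chr7:44986371-44986670, minus strand: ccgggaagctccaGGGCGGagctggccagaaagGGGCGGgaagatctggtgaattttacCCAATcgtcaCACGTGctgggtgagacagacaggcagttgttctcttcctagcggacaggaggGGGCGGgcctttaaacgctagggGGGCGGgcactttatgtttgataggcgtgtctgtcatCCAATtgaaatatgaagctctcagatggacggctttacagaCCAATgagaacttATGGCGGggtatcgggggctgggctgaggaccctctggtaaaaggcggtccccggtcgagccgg
Prmt2, chr10:76237816-76238115, minus strand: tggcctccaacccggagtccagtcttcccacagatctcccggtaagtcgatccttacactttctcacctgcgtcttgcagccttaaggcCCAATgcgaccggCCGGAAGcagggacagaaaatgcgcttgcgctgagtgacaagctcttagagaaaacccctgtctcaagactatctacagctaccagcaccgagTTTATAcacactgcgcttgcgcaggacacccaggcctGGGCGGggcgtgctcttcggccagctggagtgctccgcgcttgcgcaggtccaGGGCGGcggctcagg
Prmt10, chr8:77549147-77549446, plus strand: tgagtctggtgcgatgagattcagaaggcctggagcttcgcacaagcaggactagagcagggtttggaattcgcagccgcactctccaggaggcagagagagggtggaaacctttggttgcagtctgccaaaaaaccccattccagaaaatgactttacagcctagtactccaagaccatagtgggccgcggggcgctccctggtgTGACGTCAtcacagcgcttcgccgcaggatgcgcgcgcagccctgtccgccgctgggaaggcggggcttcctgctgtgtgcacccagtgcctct

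The Prmt5 window held 4 CCAAT boxes and no GC box, and the Prmt1 window held 3 CCAAT boxes, 4 GC boxes, 1 E-box and 1 YY1 core. Prmt2 had 2 GC boxes and 1 match each to the CCAAT, TATA and ETS motifs, and Prmt10 had 1 cyclic AMP response element. Over the 7 member promoters, 4 held a CCAAT box and 4 a GC box, against 37.4% and 35.7% of all 32851 RefSeq promoters of the same length. The cyclic AMP response element was in 1.79% of all promoters, the E-box in 7.15%, the ETS motif in 8.86% and the TATA box in 13.6%. The YY1 core was in 4.05% of all promoters and in 1 of the 7, and the NRF1 core, in 3.91% of all, was in none of the 7. No match overlapped another, no single motif was shared by all members, and GC content ran from 55% (Prmt6) to 69.7% (Prmt7), above the median of 52.7%. The matches are letters in these windows and were not tested against the expression values.

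The libraries held 37834096 to 41812565 reads in genes in Prmt5 KO and 42213314 to 44704636 in Prmt5 fl/fl, and the deposited values are counts scaled to a total of 44704636. All 12 stem cell markers examined were detected in every library, and those of the gate included Ly6a (Sca-1) at 5367 to 9401 scaled counts in KO and 4969 to 8266 in fl/fl, and Slamf1 (CD150) at 2731 to 3408 and 3127 to 4489. Cd48, selected against, was at 492 to 676 in KO and 446 to 757 in fl/fl. Of 10 markers of megakaryocytes and platelets, 1 fell in the limma fit across all genes (Itga2b, the integrin CD41), where 0.453% of all genes tested did. By edgeR 1 of the 10 was called and by DESeq2 4, where 0.425% and 6.95% of all genes were. The unadjusted limma p was below 0.05 for 5, all lower in KO, as for 13.6% of all genes tested. In this list 2 folds were above 0, and the sum was 30186 to 58116 in KO against 68839 to 84682 in fl/fl. None of the 10 was at 0 in all libraries. For 10 markers of red cell precursors the sum was 4947 to 5603 in KO and 5790 to 17209 in fl/fl, the highest in fl/fl replicate 1. Car1, one of them, was at 4016 scaled counts in that library, against 553 and 617 in fl/fl replicates 2 and 3. Among the 8 tested, 1 fell by limma (Klf1, a transcription factor of red cells), 0 were called by edgeR and 2 by DESeq2. The unadjusted limma p was below 0.05 for 4 of the 8, all lower in KO, beside the same 13.6% of all genes. Their median log2 fold change was -2.56, and 1 fold was above 0. The hemoglobin genes Hba-a1 and Hba-a2 were listed at 0. Summed granulocyte and monocyte markers (0 of 10 called by limma, 1 with an unadjusted p below 0.05, 0 by edgeR or DESeq2) ran from 66390 to 552513 in KO, the highest in replicate 3, and from 59578 to 205724 in fl/fl, the highest in replicate 1. Lymphocyte markers summed to 1684 to 2163 in KO and 1936 to 2999 in fl/fl, and mast cell and basophil markers to 454 to 2601 and 401 to 10663, the last again in fl/fl replicate 1. The calls of Itga2b and Klf1 were lost in limma fits that left out any 1 library but fl/fl replicate 3 (adjusted p = 0.0607 to 0.142 for Itga2b and 0.0767 to 0.219 for Klf1). The call of Klf1 was also lost by edgeR (adjusted p = 0.0653) and by limma without a filter (0.0570), with median-of-ratios size factors (0.0668) and with quantile normalization (0.0566). The part of such cells in the values below was not tested. One library stood apart by gene length: in fl/fl replicate 3, genes over 5 kb were at a median log2 of -0.73 relative to the other fl/fl libraries, and genes under 2 kb at 0.41. The corresponding medians of the other 5 libraries lay between -0.11 and 0.39 and between -0.21 and 0.087.

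Prmt5 itself was the 1 member that changed past the threshold. It was at 1056, 1049 and 897 scaled counts in KO replicates 1 to 3, against 6076, 6024 and 6010 in fl/fl replicates 1 to 3. The groups were far apart, and the fl/fl pools lay close together, with a coefficient of variation of 0.578% where the counting error at their depth of 5675 to 6024 reads is 1.30%. The log2 fold change was -2.60 (standard error 0.13; limma, adjusted p = 6.18e-04), the second smallest p of all genes tested. KO replicates 1, 2 and 3 retained 17.5%, 17.4% and 14.9% of the mean fl/fl level. In sorted bulk cells, fewer undeleted cells and less RNA per cell cannot be told apart, and reads from any exons left in the deleted gene also count. Fits that left out 1 library gave limma adjusted p values of 6.96e-04 to 0.0123.

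**Figure D1:**
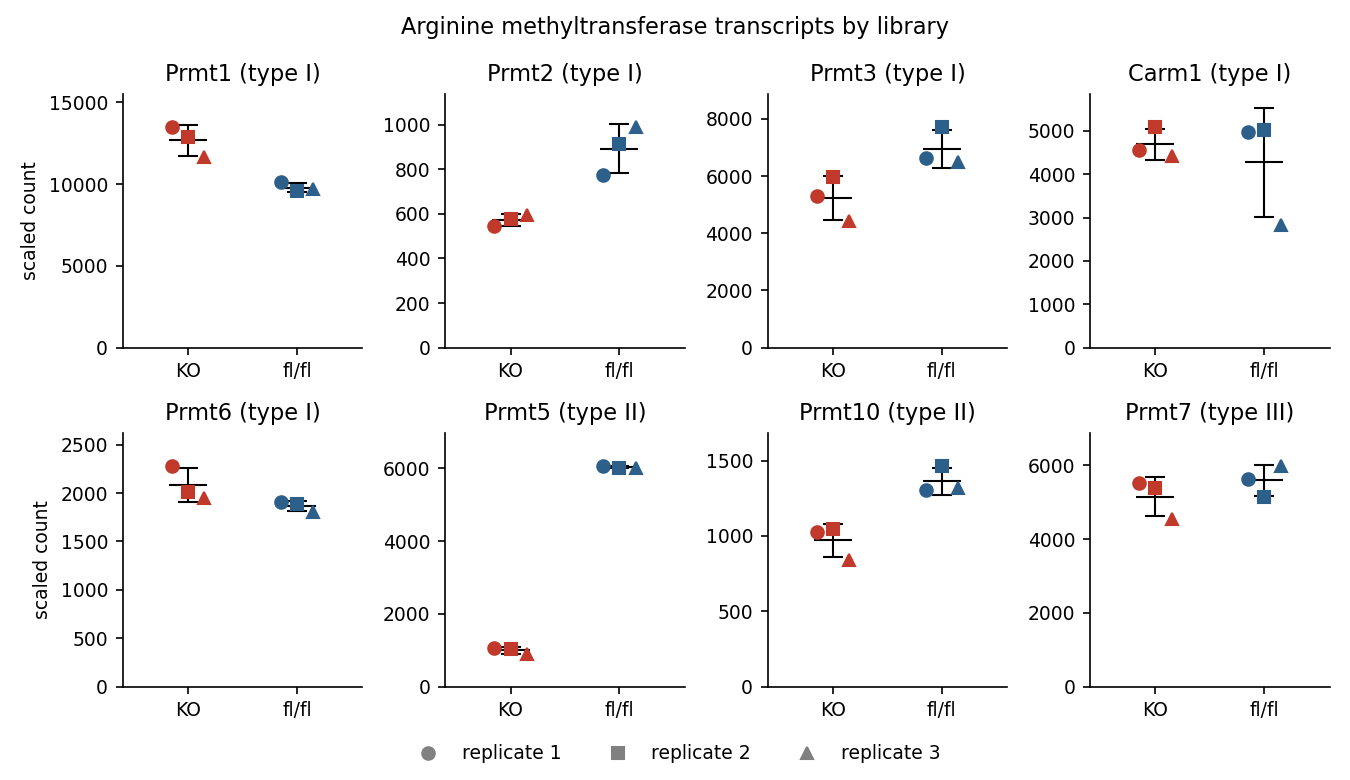
Scaled counts of the 8 members in the 3 Prmt5 KO (red) and 3 Prmt5 fl/fl (blue) libraries, each panel on its own linear axis from 0, with horizontal bars for the mean and error bars for the SD. Prmt5 sits at 897 to 1056 in KO and 6010 to 6076 in fl/fl, while Carm1 in fl/fl replicate 3 (2819) lies far below the other 5 libraries.

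Among the type I genes, Prmt1, the main enzyme of asymmetric dimethylation, was at 13508, 12862 and 11647 scaled counts in KO replicates 1 to 3 and at 10114, 9572 and 9669 in fl/fl replicates 1 to 3. Every KO value lay above every fl/fl value. The means were 12672 ± 945 in KO and 9785 ± 289 in fl/fl (SD, n = 3 each). The log2 fold change of 0.37 (95% interval 0.11 to 0.63) missed the threshold (adjusted p = 0.145 by limma). DESeq2 called it (adjusted p = 0.0132), edgeR did not (adjusted p = 0.122), and over all 15 alternatives its adjusted p ran from 0.0132 to 0.447.

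Prmt2, a type I enzyme with an SH3 domain that acts as a nuclear receptor coactivator, was at 546, 576 and 595 scaled counts in KO replicates 1 to 3. In fl/fl replicates 1 to 3 it had 774, 913 and 991, again with no overlap. Its log2 fold change of -0.63 (95% interval -1.02 to -0.24) was the lowest of the family after that of Prmt5, with a limma adjusted p of 0.113. Prmt3, a cytosolic enzyme that methylates the ribosomal protein RPS2, was at 5320, 5965 and 4417 in KO replicates 1 to 3, against 6621, 7731 and 6503 in fl/fl replicates 1 to 3. These groups did not overlap either, and the log2 fold change was -0.42 (95% interval -0.77 to -0.065; limma adjusted p = 0.207).

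Carm1, a coactivator of transcription also known as PRMT4, was at 4567, 5099 and 4416 scaled counts in KO replicates 1 to 3 and at 4974, 5032 and 2819 in fl/fl replicates 1 to 3. The groups overlapped, and the low value of fl/fl replicate 3 set the spread. The log2 fold change was 0.18 (95% interval -0.36 to 0.73; limma adjusted p = 0.706) with all libraries and -0.095 without fl/fl replicate 3. In GENCODE 21.1% of the exon bases of Carm1 are shared with Yipf2, which runs the opposite way, and reads of these unstranded libraries cannot be assigned between them. Prmt6, which methylates histone H3 at arginine, was at 2283, 2012 and 1948 in KO replicates 1 to 3 and at 1907, 1891 and 1804 in fl/fl replicates 1 to 3. The 2 groups only just separated, with a log2 fold change of 0.15 (95% interval -0.15 to 0.46; limma adjusted p = 0.565). A share of 23.4% of its exon bases overlaps the antisense gene C130013H08Rik, whose reads cannot be told apart from its own.

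The other type II gene, Prmt10, whose product methylates the splicing factor SF3B2, was at 1024, 1044 and 843 scaled counts in KO replicates 1 to 3. In fl/fl replicates 1 to 3 it had 1304, 1466 and 1318, above every KO value. The log2 fold change was -0.49 (95% interval -0.86 to -0.13; limma adjusted p = 0.164). Prmt7, the type III enzyme, was at 5520, 5381 and 4543 in KO replicates 1 to 3 and at 5641, 5145 and 5990 in fl/fl replicates 1 to 3. Its groups overlapped (log2 fold change -0.12, 95% interval -0.43 to 0.19; limma adjusted p = 0.651). Both type II genes were thus lowest in KO replicate 3, as were Prmt1, Prmt3, Carm1, Prmt6 and Prmt7 among the KO libraries, while Prmt2 was highest there. Without that library the log2 fold changes were 0.43 for Prmt1, -0.40 for Prmt10, -0.30 for Prmt3 and -0.034 for Prmt7.

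Of the 8 members, 1 passed the limma threshold, where 0.73% of all genes tested did. It was lower in KO, as were 0.453% of all genes, and 0 members were called higher, against 0.276% of all genes. Over all genes limma called 39 higher and 64 lower, and 35 higher and 22 lower with median-of-ratios size factors (0.404% called, 1 member), so the balance of directions depends on the scaling. By edgeR 1 member was called (0.425% of all genes) and by DESeq2 2, Prmt5 and Prmt1 (6.95% of all genes). The unadjusted limma p was below 0.05 for 5 of 8 members, against 18.2% of all genes tested: Prmt1, which was higher in KO (4.58% of all genes), and Prmt5, Prmt2, Prmt3 and Prmt10, which were lower (13.6%). The KO and fl/fl values did not overlap for 6 of the 8, against 28.2% of all genes tested (28.4%, and also 6 of 8, with median-of-ratios size factors). All KO values were above those of fl/fl for 2 (Prmt1 and Prmt6; 8.3% of all genes) and below them for 4 (19.9%). The median log2 fold change was -0.27 over the members and -0.048 over all genes tested, and 3 of 8 folds were above 0. Prmt5, the deleted gene, is part of this median and of each count above except those of members higher in KO, so these figures do not describe its relatives alone. The signs of all 8 folds were the same with median-of-ratios size factors and with quantile normalization.

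**Figure D2:**
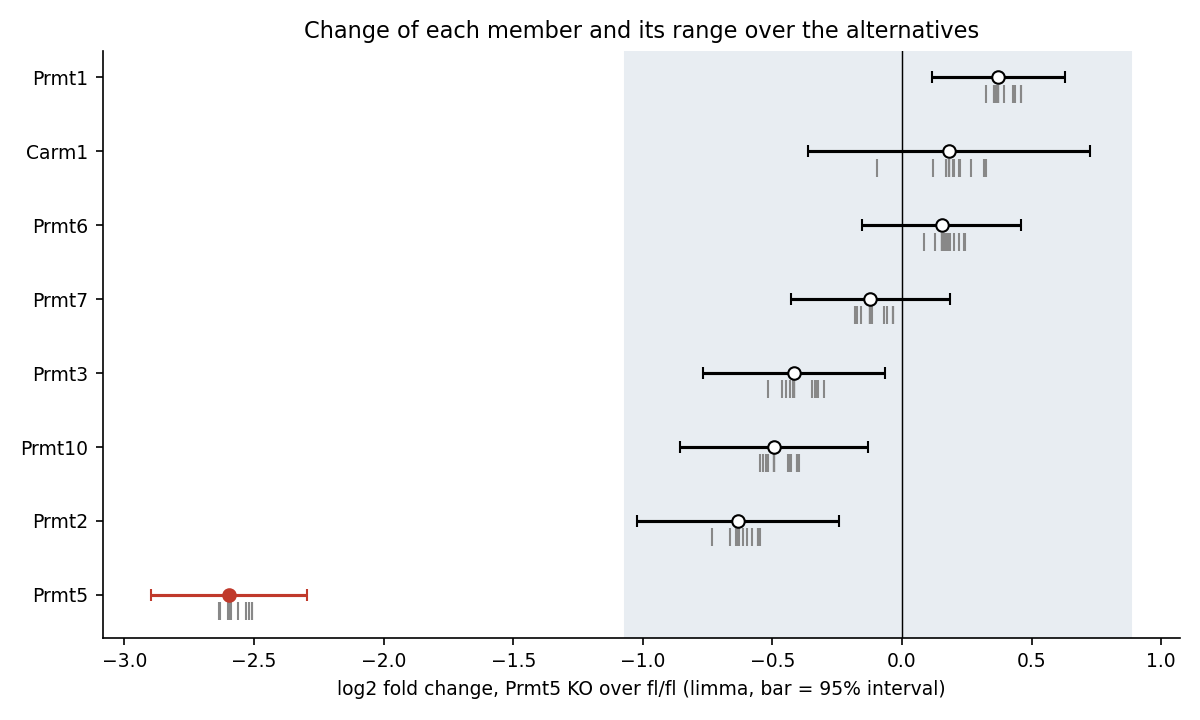
Log2 fold change of each member, Prmt5 KO over fl/fl, with the 95% interval of the limma fit (filled red where the adjusted p is below 0.05), the value under each of 15 alternatives as gray ticks, and the span from the 5th to the 95th percentile of all genes tested (-1.07 to 0.88) shaded. Prmt5 alone lies outside the shaded span, and 1 tick of Carm1 (-0.095) falls on the other side of 0.

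Levels were then compared between members per length, as RPKM, reads scaled to gene length and library total, with the deposited gene lengths. Prmt1 was the most abundant member in both genotypes, at 188 ± 14.0 RPKM in KO and 145 ± 4.29 RPKM in fl/fl (SD, n = 3 each), above 97.1% and 95.7% of the genes tested. In fl/fl the order below it was Prmt3 (62.3 RPKM), Prmt7 (55.5 RPKM), Prmt5 (51.1 RPKM), Carm1 (29.7 RPKM), Prmt10 (11.0 RPKM), Prmt6 (9.88 RPKM) and Prmt2 (9.73 RPKM). The ranges of Prmt3 and Prmt7, of Prmt7 and Prmt5, and of Prmt6 and Prmt2 over the fl/fl libraries overlapped. Within each library Prmt7 stood above Prmt5, at 56.0, 51.1 and 59.4 RPKM in fl/fl replicates 1 to 3 against 51.5, 51.0 and 50.9 RPKM. In fl/fl replicate 2 the gap was below the counting error, which in fl/fl was 1.35% for Prmt7 and 1.30% for Prmt5. In KO, Prmt5 stood at 8.47 ± 0.764 RPKM, sixth of 8, between Prmt6 (11.0 RPKM) and Prmt10 (7.81 RPKM). The ranges of Prmt5 and Prmt10 overlapped over the KO libraries, while within each of them Prmt5 was above Prmt10. Prmt7 (51.1 RPKM) and Prmt3 (46.9 RPKM) overlapped in KO as well, and Prmt2 was last at 6.24 RPKM. The order below Prmt1 depended on the lengths used. Per kilobase of GENCODE M21 exons, a length chosen after seeing the data, Prmt5 stood second in fl/fl (1525 scaled counts per kb), above Prmt3 (1159) and Prmt7 (913), and Prmt10 stood last (240). By the same lengths Carm1 stood second in KO (967 scaled counts per kb), and Prmt5 stood sixth of 8, as with the deposited lengths.

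The make-up of the family's transcripts differed between the genotypes. Prmt5 made up 2.42%, 2.42% and 2.38% of the family sum per length in KO replicates 1 to 3, against 13.5%, 13.4% and 14.0% in fl/fl replicates 1 to 3, a difference of -11.3 percentage points. The share of Prmt1 was 53.4% ± 1.27 in KO and 38.8% ± 1.24 in fl/fl (SD, n = 3 each). These 2 shares and those of Prmt2, Prmt3, Prmt6 and Prmt10 were apart in KO and fl/fl, while those of Carm1 and Prmt7 overlapped (for the 6, exact two-sided permutation p = 0.1, and 0.133 adjusted over 8 members). With 3 against 3 libraries 0.1 is the smallest p that this test can give. The type I genes together held 80.9% ± 0.436 in KO and 68.6% ± 1.74 in fl/fl, and the type II genes 4.62% ± 0.104 and 16.6% ± 0.343. With Prmt5 left out of the sum, the type I genes held 82.9% ± 0.427 in KO and 79.4% ± 1.72 in fl/fl. Prmt10, the type II gene that remains, held 2.27% ± 0.0839 and 3.39% ± 0.198.

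A fall of Prmt5 raises the shares of the other members by construction, so shares were also taken over the 7 others. Prmt1 then held 54.7% ± 1.30 in KO and 44.9% ± 1.55 in fl/fl (SD, n = 3 each), a difference of 9.81 points. Prmt3 held 13.6% ± 1.16 in KO and 19.3% ± 1.59 in fl/fl, Prmt7 14.8% ± 0.362 and 17.2% ± 1.78, Prmt10 2.27% ± 0.0839 and 3.39% ± 0.198, and Prmt2 1.83% ± 0.226 and 3.02% ± 0.450. The shares of these 5 were apart in KO and fl/fl (exact two-sided permutation p = 0.1, and 0.14 adjusted over 7 members), and those of Carm1 and Prmt6 overlapped. Since Prmt1 is the largest part of this sum, a higher share of Prmt1 lowers the others by construction, and the scaled counts of Prmt7 themselves overlapped. The summed level of the 7 was 344 ± 27.7 RPKM in KO and 323 ± 9.99 RPKM in fl/fl, ranges that overlapped (exact permutation test, two-sided, p = 0.3). With Prmt5 it was 352 ± 28.5 RPKM in KO and 374 ± 10.2 RPKM in fl/fl (exact permutation test, two-sided, p = 0.3).

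**Figure D3:**
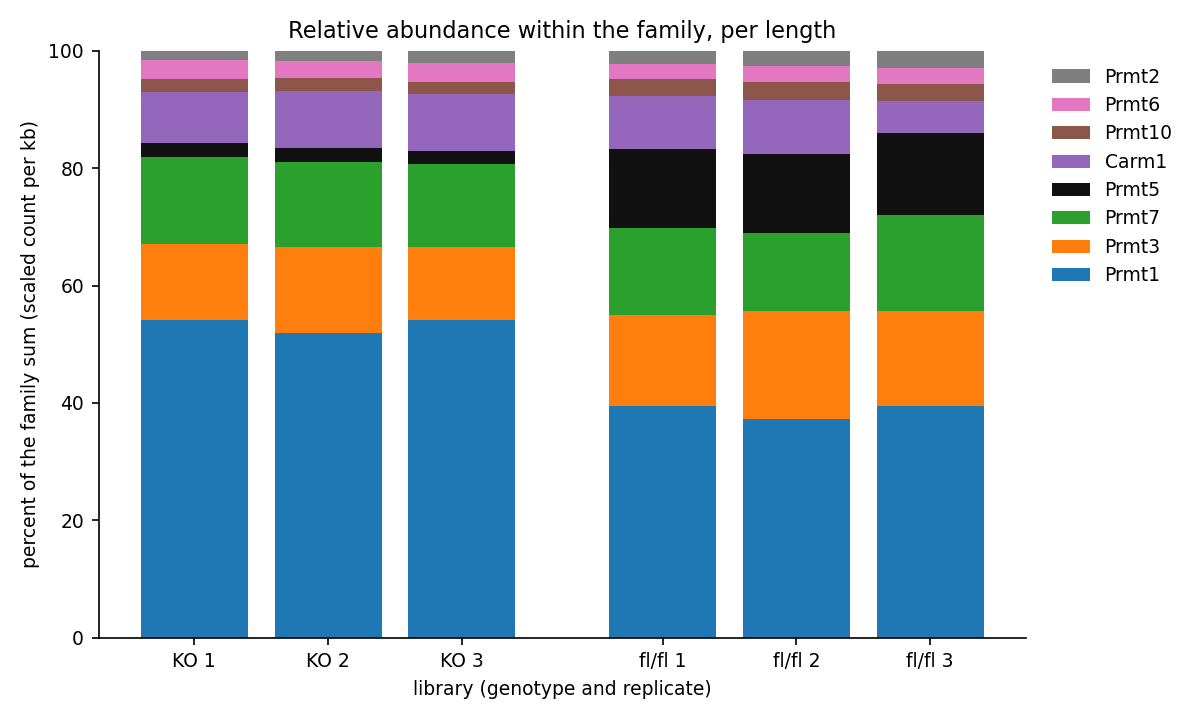
Share of each member in the summed scaled count per kilobase of the family, in percent, for the 3 Prmt5 KO libraries (left) and the 3 Prmt5 fl/fl libraries (right). The black Prmt5 band is 2.38 to 2.42% high in KO and 13.4 to 14.0% in fl/fl, and the Prmt1 band at the base is 51.9 to 54.2% and 37.4 to 39.6%.

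Ratios within a library need no scaling between libraries. Prmt1 transcripts exceeded those of Prmt5 per length by 22.4, 21.5 and 22.8 times in KO replicates 1 to 3, against 2.92, 2.78 and 2.82 times in fl/fl replicates 1 to 3. The ratio of Prmt1 to Prmt3 was 4.04 ± 0.420 in KO and 2.35 ± 0.259 in fl/fl, and that of Prmt1 to Prmt2 was 30.2 ± 3.53 in KO and 15.1 ± 2.36 in fl/fl (SD, n = 3 each). The type II pair, Prmt5 over Prmt10, stood at 1.09 ± 0.0305 in KO and 4.68 ± 0.309 in fl/fl. All 4 ratios were apart in KO and fl/fl (exact two-sided permutation p on log2 ratios = 0.1, and 0.125 adjusted over 5 ratios). The pairs were not among the planned tests, and those with Prmt5 hold the deleted gene. Their separation follows from the scaled counts given above and is no separate evidence. The fifth ratio, Prmt7 over Prmt3, was 1.10 ± 0.0839 in KO and 0.900 ± 0.146 in fl/fl, with overlap (exact permutation test, two-sided, p = 0.2). The size of a ratio between genes depends on their lengths, which cancel between the genotypes. With GENCODE M21 exon lengths Prmt1 over Prmt5 was 14.7 ± 0.434 in KO and 1.87 ± 0.0452 in fl/fl (SD, n = 3 each).

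Most members varied less between the fl/fl pools than the median over all genes tested. In fl/fl the coefficient of variation was 2.95% for Prmt1, 2.98% for Prmt6, 6.59% for Prmt10, 7.59% for Prmt7, 9.74% for Prmt3 and 12.3% for Prmt2, against a median of 20.8% over all genes tested. Carm1, at 29.5%, was the exception. The fl/fl median includes fl/fl replicate 3, the library that stood apart by gene length. In KO the 8 members lay between 4.36% (Prmt2) and 14.9% (Prmt3), on both sides of the median over all genes tested, 11.7%.

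Genes that work with these enzymes were examined in 7 lists, in which 2 of 80 tested members passed the limma threshold, set beside 0.73% of all genes tested. Of 9 tested partners and modulators 0 passed by limma, edgeR or DESeq2, with a median log2 fold change of 0.13. The unadjusted limma p was below 0.05 for 1, against 18.2% of all genes tested. Wdr77, whose product pairs with PRMT5 in the methylosome, was measured at 9818 ± 980 scaled counts in KO and 9684 ± 289 in fl/fl (SD, n = 3 each). Clns1a, the adaptor that brings Sm proteins to PRMT5, was at 9288 ± 1074 in KO and 8521 ± 1296 in fl/fl, and the adaptor Riok1 at 3633 ± 115 and 3638 ± 254. The values of all 3 overlapped between the genotypes. The smallest p was that of Sf3b2, the substrate of PRMT9 (log2 fold change 0.34; limma adjusted p = 0.253).

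Among 8 tested readers of methylated arginine, proteins with Tudor domains, 1 rose and 0 fell, where 0.276% and 0.453% of all genes tested did. The unadjusted p was below 0.05 for 2 higher in KO and 1 lower, against 4.58% and 13.6% of all genes tested. Smndc1, also called SPF30, a Tudor protein of the U2 snRNP that binds symmetrically dimethylated arginine, was at 3962, 3670 and 3641 scaled counts in KO replicates 1 to 3. In fl/fl replicates 1 to 3 it had 2014, 2162 and 1842, so the groups were apart. The log2 fold change was 0.91 (standard error 0.13; limma, adjusted p = 0.0428), with an adjusted p of 0.0379 by edgeR and 6.79e-09 by DESeq2. The call was lost when any 1 library but fl/fl replicate 3 was left out (limma adjusted p = 0.102 to 0.227). The related Smn1, the Tudor protein of the SMN complex, was at 1915 ± 252 in KO and 1419 ± 156 in fl/fl (log2 fold change 0.43; limma adjusted p = 0.221). The median of the list was -0.034.

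Of 7 tested genes listed for removal or breakdown of methylarginine, 1 fell and 0 rose, where 0.453% and 0.276% of all genes tested did. The unadjusted p was below 0.05 for 3, 2 of them with folds above 0, against 18.2% of all genes tested. The list includes deiminases, which are described here as acting on arginine. Padi2, a deiminase that turns arginine of proteins into citrulline, was at 131, 121 and 170 scaled counts in KO replicates 1 to 3, against 357, 365 and 402 in fl/fl replicates 1 to 3. Its log2 fold change was -1.42 (standard error 0.23; limma, adjusted p = 0.0476). The call was lost with edgeR (adjusted p = 0.0696) and in limma without a filter (0.0720), with median-of-ratios size factors (0.0681), with quantile normalization (0.0765) and when any 1 library but fl/fl replicate 3 was left out (0.106 to 0.227). The 2 with folds above 0, named after their values were seen, were low in all libraries. Padi3, another deiminase, was at 13.0, 48.1 and 34.3 scaled counts in KO replicates 1 to 3 and at 3.04, 8 and 1.06 in fl/fl replicates 1 to 3 (log2 fold change 2.78; limma adjusted p = 0.139), and DESeq2 called it (adjusted p = 0.0391) as it did Padi2. Ddah1, which breaks down free methylarginine, stood at a log2 fold of 2.06 (adjusted p = 0.177 by limma). Jmjd6, an oxygenase proposed to demethylate arginine, was at 3755 ± 280 in KO and 3203 ± 220 in fl/fl (SD, n = 3 each; limma adjusted p = 0.385).

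The cycle that makes and recycles S-adenosylmethionine had 16 tested genes, of which 0 passed by limma, edgeR or DESeq2, with a median log2 fold change of 0.024. The unadjusted limma p was below 0.05 for 3, all with folds below 0. Over all genes tested this held for 13.6% in that direction and 18.2% in either, so the count is near that background. Mat2a, the S-adenosylmethionine synthetase of blood cells, was at 28636, 31034 and 26697 scaled counts in KO replicates 1 to 3, against 34604, 40894 and 36045 in fl/fl replicates 1 to 3. These groups did not overlap (log2 fold change -0.37; limma adjusted p = 0.167). Cth, cystathionine gamma-lyase, was low throughout, at 19.7 ± 10.2 in KO and 58.0 ± 4.36 in fl/fl (log2 fold change -1.63; limma adjusted p = 0.139). Mtap, which salvages methylthioadenosine, an inhibitor of PRMT5, was at 7250 ± 1123 in KO and 6130 ± 76.4 in fl/fl (limma adjusted p = 0.433).

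Known substrates were taken in 2 lists. Of 13 genes for substrates of PRMT5 or PRMT9, 0 were called by limma, edgeR or DESeq2 and 0 had an unadjusted p below 0.05, with a median log2 fold change of 0.044, against 0.73% called by limma and 18.2% with an unadjusted p below 0.05 over all genes tested. With lists of this size a count of 0 called is near that background. The smallest p values were those of the splicing factor gene Srsf1 (0.27; limma adjusted p = 0.432) and of E2f1, a transcription factor of the cell cycle (-0.26; limma adjusted p = 0.450). Sf3b2, the substrate of PRMT9 given above, was counted among the partners and not in this list. Its limma p was 0.0407 unadjusted and 0.253 adjusted. Of 25 genes for substrates of type I enzymes, limma and edgeR called 0, DESeq2 called 1, and 4 had an unadjusted p below 0.05, with a median of 0.13. Taf15, which encodes an RNA-binding protein, was at 400 ± 96.6 scaled counts in KO and 656 ± 89.0 in fl/fl (SD, n = 3 each; log2 fold change -0.73; limma adjusted p = 0.160). Of 3 further arginine methyltransferase genes 0 were called by limma, edgeR or DESeq2, with 0 at an unadjusted p below 0.05. Prmt8, a brain enzyme, was listed at 0 in all 6 libraries, and the mitochondrial enzyme gene Ndufaf7 was at 2200 ± 253 in KO and 2389 ± 231 in fl/fl. Mettl23, a methyltransferase of histone H3, was at 1741 ± 42.6 in KO and 2305 ± 615 in fl/fl (limma adjusted p = 0.364).

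**Figure D4:**
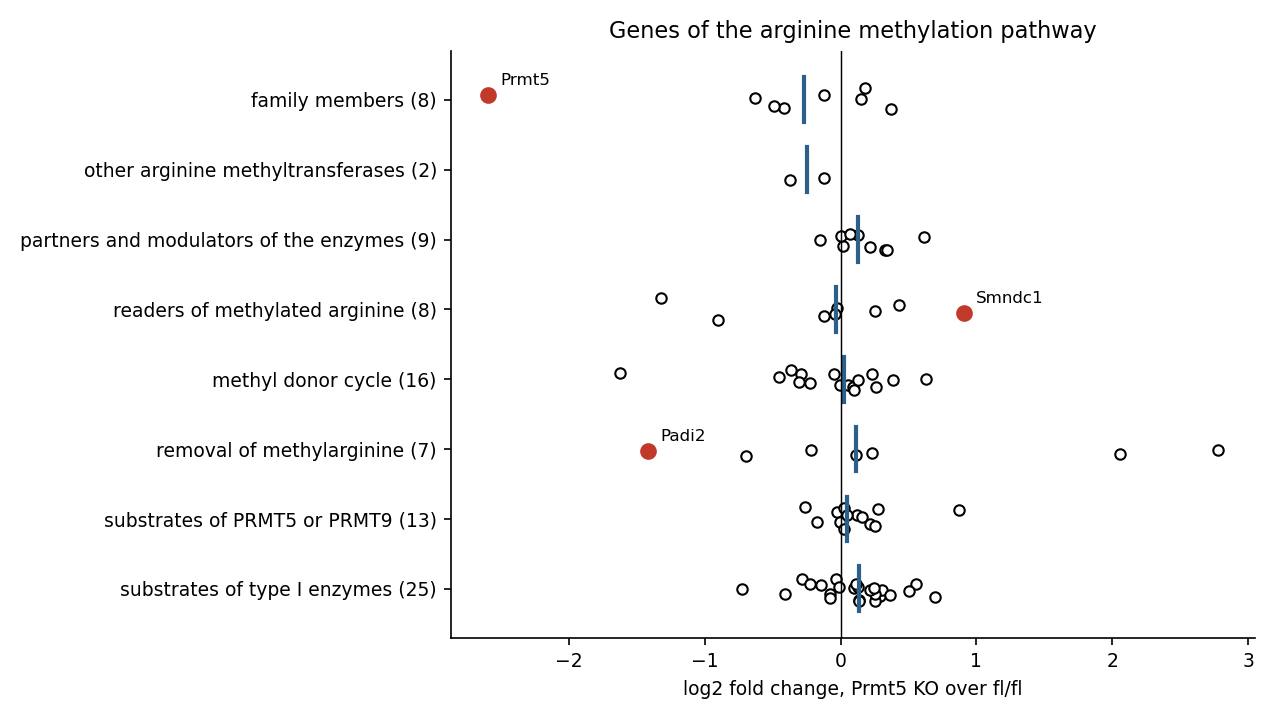
Log2 fold change, Prmt5 KO over fl/fl, of each tested gene in the family and in the 7 pathway lists (number of tested genes in brackets), filled red where the limma adjusted p is below 0.05, with a blue line at each list's median. Prmt5 (-2.60), Padi2 (-1.42) and Smndc1 (0.91) are the 3 filled points.

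The genes whose log2 values followed those of Prmt5 most closely over the 6 libraries, among 11543 genes averaging 100 scaled counts or more, were the glucose transporter gene Slc2a8 (Pearson r = 0.998), Rapsn (0.997), Amigo2 (0.996) and the acyltransferase gene Soat2 (0.996). Those closest to Prmt1 were the phosphatase gene Pdp1 (0.990), the chaperone gene Clpb (0.990), the glycolytic gene Pgam1 (0.987) and Enoph1, an enzyme of methionine salvage (0.987). Soat2 was at 182, 164 and 168 scaled counts in KO replicates 1 to 3 and at 490, 540 and 536 in fl/fl replicates 1 to 3. Such r values describe 6 points that share genotype and library, and largely follow the separation of the 2 genotypes.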

How the data were processed

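Per the labels' protocols, RNA from sorted cells was extracted with Trizol and made into libraries with the SMART-Seq v4 and Nextera XT kits, which do not mark strand. Per the submitters' processing notes, STAR and featureCounts were used, with the mm10 build. Their versions and the gene annotation are not stated there. Deposited were read counts per gene for Prmt5 fl/fl replicate 2, and for the other 5 libraries a scaled signal, which is the count brought to a total of 44704636. Reversing that step gave whole reads for 100% of values (tolerance 1e-06). The deposited gene length (unit other, in bases) was used for RPKM, computed here from the scaled counts. Symbols were matched to GENCODE M21 (GRCm38) and RefSeq.

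The 14113 genes whose mean reached 10 scaled counts were tested on log2(value + 1). The test was limma's, moderated with a trend on the mean and two-sided, adjusted by Benjamini-Hochberg over all genes tested (threshold 0.05). Fold changes on this scale understate those of low genes. Versions were R 4.3.3, limma 3.58.1, edgeR 4.0.16, DESeq2 1.42.0 and Python 3.11.15. The fits were tested on simulated data. The alternatives comprised other pseudocounts, filters, scalings and tools, a replicate block, and leaving out each library. Each library is a separate pool of 2 mice, and p-values measure the spread between pools.

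The fits and permutation tests are unpaired. No library was a copy of another (chi-square per degree of freedom of 26.2 or more for each pair).

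The members, lists and motifs were chosen with earlier results of these data known, and the NRF1 and YY1 motifs were shortened to their cores after a first search with longer forms, which no member promoter held. Named were all members, list genes past the threshold or else the 2 with the smallest p in each list, and the 4 genes closest in pattern to Prmt5 and to Prmt1; 2 list genes so chosen are not reported here. Wdr77, Clns1a, Riok1, Smn1, Jmjd6, Mtap and the gate and marker genes were named for their roles.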

Additional observations from a re-analysis of the deposited data

How the results depend on the processing

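Over the 15 alternatives, limma, edgeR or DESeq2 called 1 to 981 genes in all (103 in the values reported): 57 with median-of-ratios size factors, 64 with quantile normalization, 60 by edgeR, 981 by DESeq2, 1 with the replicate block, and 3 to 377 without 1 library (377 without fl/fl replicate 3, 3 to 19 without each of the others). The cause was not tested. The family members called were 2 by DESeq2 (Prmt5 and Prmt1), 0 with the replicate block (Prmt5 at a limma adjusted p of 0.0618), and 1 without each library in turn and under the other alternatives. Libraries of equal replicate number share a title prefix that no label explains, and the numbers were not taken to pair them. Correlations of their deviations from the group means were -0.14, 0.067 and -0.26. These cannot exclude a pairing, since the shift by gene length in fl/fl replicate 3 enters the deviations of every fl/fl library. With the replicate block Smndc1, Padi2, Itga2b, Klf1, Rapsn and Soat2, all called without it, were not called either. Of the genes that followed Prmt5, Soat2 (limma adjusted p = 0.0275) and Rapsn (0.0475) were called, both calls were lost when any 1 library but fl/fl replicate 3 was left out, and that of Rapsn also by edgeR, without a filter and with both other scalings. Of the genes in the 7 pathway lists, 2 were called, against 1 without a filter, with median-of-ratios size factors, with quantile normalization and by edgeR, 4 by DESeq2, 0 with the replicate block and 0 to 3 without 1 library (3 without fl/fl replicate 3, and 0 without each of the others). The log2 fold change of Carm1 ran from -0.095 (without fl/fl replicate 3) to 0.32 without 1 library, the cause of which was not tested, and the folds of the other 7 members kept their sign under all 15 alternatives, with ranges such as -0.18 to -0.034 for Prmt7 and -0.52 to -0.30 for Prmt3. The share of Prmt5 differed by -11.3 points as reported, by -13.3 points without division by length, by -15.0 points with GENCODE M21 exon lengths (chosen after seeing the data), and by -11.4 to -11.1 points without 1 library. The share of Prmt1 among the 7 other members differed by 9.81 points, and by 8.92 to 10.6 points without 1 library. Median-of-ratios size factors moved the median log2 fold change of all genes tested to 0.039, from -0.048. Depth limits Prmt2, Prmt5 and Prmt10 most, whose counting errors in KO were 4.46%, 3.37% and 3.43%.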
